A study of Rattus norvegicus with 6 samples.

Results

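Transforming growth factor-beta (TGF-beta) signalling was followed in NRK-52E cells through 10 genes chosen by name. They were the ligands Tgfb1, Tgfb2 and Tgfb3, the receptors Tgfbr1, Tgfbr2 and Tgfbr3, the transducers Smad2 and Smad3, and the inhibitors Smad7 and Skil. Each of the 10 symbols matched a single row of the 18930 in the deposited count table, and all 10 rows passed the filter on low counts. NRK-52E is an established line of wild-type rat kidney epithelial cells. RNA was sequenced from 3 Control samples, which received vehicle, and from 3 samples treated with streptozotocin (STZ) at 10 mM for 24 h. STZ, a nitrosourea joined to a sugar, alkylates DNA, and the comparison asks which genes respond to it in tubular epithelial cells. The sources do not say whether the samples came from separate cultures, so the p-values measure the spread between these samples, which may be technical.

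TGF-beta ligands are secreted in a latent complex, which latent TGF-beta binding proteins tether to the matrix and which integrins, proteases and thrombospondin can open. The freed ligand binds the type II receptor, encoded by Tgfbr2, which recruits and phosphorylates the type I receptor, encoded by Tgfbr1. Tgfbr3 encodes betaglycan, a co-receptor that presents ligand. The type I receptor phosphorylates Smad2 and Smad3, which join Smad4 and act in the nucleus. Smad7 blocks the receptors and Skil, which encodes SnoN, represses Smad complexes, and both genes are themselves induced by the pathway as negative feedback. In the kidney the pathway is best known for tubular growth arrest, matrix deposition and fibrosis. Only RNA was measured here, not phosphorylated Smads or secreted ligand.

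Library totals lay between 10430924 and 15191349 counts. Each of the 10 genes had between 313 and 8304 reads in a sample, so none was limited by low counts. Values below are CPM, the counts of a gene relative to the scaled total of its library, and differences are log2 fold changes of STZ against Control. Gene lengths were not used here, so the levels of different genes are not compared. Between replicates the counts varied beyond sampling noise. The chi-square statistic over its degrees of freedom was 1.85 to 2.56, and highest between Control replicates 1 and 3. Of the proximal tubule markers, Lrp2, Cubn, Slc34a1, Slc5a2 and Slc2a2 did not pass the filter, and only 2 of the 7 in the table did. The 7 summed to 57.8 to 60.4 CPM in Control and 74.9 to 87.1 CPM in STZ, but the 2 that passed went opposite ways, with log2 fold changes of 0.73 for Ggt1 and -1.25 for Aqp1 (edgeR adjusted p = 1.87e-13 and 9.36e-09). Of 9 epithelial markers measured, 4 passed, with sums of 1708 to 1794 CPM in Control and 2287 to 2293 CPM in STZ, and Krt8 and Tjp1 carried most of these sums. Of the 4, Krt8 and Tjp1 were called higher (log2 fold changes 0.48 and 0.15) and Cdh1 lower (-0.69, edgeR adjusted p = 0.0296). Krt7 (-0.16) did not pass the test. Of 11 fibroblast and pericyte markers 6 passed (159.9 to 169.4 CPM in Control, 124.0 to 140.9 CPM in STZ), while Pdgfra, Col1a2, Thy1 and Lum were at or near 0. Of the 6, Col3a1, Col1a1, Pdgfrb and Acta2 were called lower, and Des (log2 fold change 2.65) and Cspg4 (0.68) higher, and Col3a1 had the largest fall in CPM. Of 7 endothelial markers 2 passed (13.6 to 15.1 CPM in Control, 15.3 to 16.4 CPM in STZ), with Egfl7 called higher (log2 fold change 0.28) and Vwf lower (-1.15). Of 6 leukocyte markers 1 passed (1.45 to 2.36 CPM in Control, 2.43 to 2.83 CPM in STZ). The part of these marker differences in the results below was not tested.

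STZ-treated cells had more RNA of the ligand gene Tgfb1, the type II receptor gene Tgfbr2 and the transducer gene Smad3. They had less of the ligand gene Tgfb3, the transducer gene Smad2 and both inhibitor genes, Smad7 and Skil. The calls of Smad7 and Skil were lost when Control replicate 3 was left out. Tgfb2, Tgfbr1 and Tgfbr3 did not pass the test. In bulk RNA, fewer cells of a kind and less RNA per cell cannot be told apart. All differences were small, from a log2 fold change of -0.20 for Smad2 to 0.40 for Tgfb1. Of the 10 genes, 3 were higher and 4 lower by edgeR's quasi-likelihood test, at a threshold of 0.05 on the p-value after Benjamini-Hochberg adjustment over the whole table. The threshold was also passed by 50.9% of the 11870 genes tested, 25.9% higher and 25.1% lower. None of the 10 (0 by edgeR, DESeq2 or limma-voom, and 0 at an unadjusted p-value under 0.05) also had an absolute log2 fold change over 1, which 3.37% of all genes tested did at the adjusted threshold. The groups did not overlap for 3 genes that were higher and 5 that were lower with STZ. Of all genes tested, 56.3% had groups that did not overlap, 28.6% higher and 27.7% lower. The median log2 fold change was -0.030 for the 10 genes and -0.0055 for all genes tested.

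**Figure D1:**
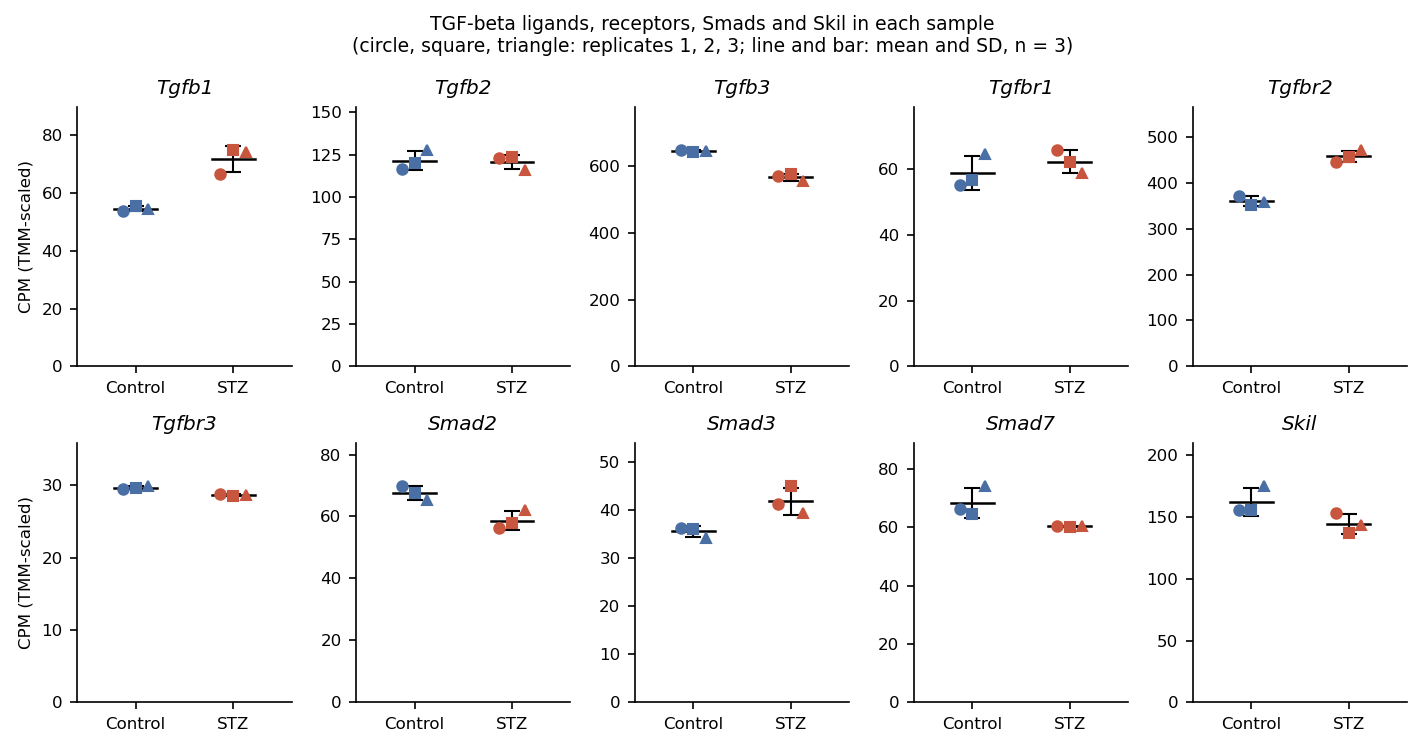
CPM (vertical axis, starting at 0) of each of the 10 genes in the 3 Control and 3 STZ samples, with symbols for replicates 1 to 3 and lines and bars for the mean and SD. Tgfb1, Tgfbr2 and Smad3 are higher in every STZ sample than in every Control sample, and Control replicate 3 is the highest sample for Smad7 and Skil.

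Among the ligands, Tgfb1 rose and Tgfb3 fell. Tgfb1, the isoform most studied in renal fibrosis, had 53.7, 55.5 and 54.4 CPM in Control replicates 1, 2 and 3 and 66.6, 74.8 and 74.1 CPM in STZ replicates 1, 2 and 3. Each STZ sample lay above each Control sample, and the STZ samples were the more spread. The means were 54.5 ± 0.88 CPM in Control and 71.8 ± 4.55 CPM in STZ (SD, n = 3 each), a log2 fold change of 0.40 (standard error 0.06, edgeR adjusted p = 9.42e-08), or 1.32-fold. Of all genes tested, 78.6% had a smaller absolute change. In RefSeq's GRCr8 annotation no other gene overlaps the span of Tgfb1.

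Tgfb3, known for its part in palate fusion and scarless repair, had 646, 642 and 644 CPM in the Control samples and 570.0, 574 and 554 CPM in the STZ samples. The Control samples were nearly equal and all lay above the STZ samples. The log2 fold change was -0.19 (standard error 0.03, edgeR adjusted p = 1.81e-05), which is 0.878-fold. Tgfb2, whose ligand depends most on betaglycan, had 117, 120.1 and 128 CPM in Control and 123, 124 and 116 CPM in STZ. Its groups overlapped. Its log2 fold change was -0.010, with a 95% interval of -0.10 to 0.08 (edgeR adjusted p = 0.870), so a change outside that interval was not seen at this depth.

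Since Tgfb1 and Tgfb3 moved in opposite directions, the balance of ligand reads shifted. The share of Tgfb1 among the reads of the 3 ligand genes was 6.65% ± 0.12 in Control and 9.47% ± 0.62 in STZ (SD, n = 3 each). That of Tgfb3 was 78.5% ± 0.58 in Control and 74.6% ± 0.38 in STZ, and that of Tgfb2 was 14.8% ± 0.59 and 15.9% ± 0.30. These shares do not depend on how libraries are scaled. For each ligand the groups did not overlap, and the exact two-sided permutation test gave p = 0.1, the smallest value that 3 samples against 3 allow. The shares are shares of reads and, without gene lengths, not of transcripts. A share also depends on the other genes of its group, and that of Tgfb2 rose although Tgfb2 itself did not pass the test.

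Of the receptors, the type II receptor gene rose and the others did not pass the test. Tgfbr2 had 371, 351 and 358 CPM in Control and 445, 455 and 470.5 CPM in STZ. The lowest STZ sample lay well above the highest Control sample. Means were 360.0 ± 10.2 CPM in Control and 457 ± 12.7 CPM in STZ (SD, n = 3 each), with a log2 fold change of 0.34 (standard error 0.04, edgeR adjusted p = 1.80e-10), or 1.27-fold.

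Tgfbr1, which encodes the kinase that phosphorylates Smad2 and Smad3, had 55.1, 56.6 and 64.6 CPM in Control and 65.6, 62.1 and 58.8 CPM in STZ. Its groups overlapped, with Control replicate 3 above 2 STZ samples. The log2 fold change was 0.07 (95% interval -0.05 to 0.19, edgeR adjusted p = 0.303). Without Control replicate 3 it was 0.15 and past the threshold (adjusted p = 0.0415 from edgeR). Tgfbr3 had 29.5, 29.6 and 29.9 CPM in Control and 28.8, 28.6 and 28.6 CPM in STZ. Its groups did not overlap, but its log2 fold change of -0.05 (95% interval -0.19 to 0.09) did not pass the test (edgeR adjusted p = 0.582). The share of Tgfbr2 among the reads of the 3 receptor genes was 80.3% ± 1.15 in Control and 83.4% ± 0.91 in STZ. That of Tgfbr3 was 6.62% ± 0.16 and 5.23% ± 0.10 (SD, n = 3 each). That of Tgfbr1 was 13.1% ± 1.10 and 11.4% ± 0.81, and only for Tgfbr1 did the groups overlap. A share depends on the other genes of its group too, so that of Tgfbr3 can fall without a fall in its own RNA. These receptor shares were chosen after the values had been seen and were not tested.

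The 2 transducer genes moved in opposite directions. Smad3 had 36.4, 36.1 and 34.3 CPM in Control and 41.2, 45.0 and 39.4 CPM in STZ, so each STZ sample lay above each Control sample. Its log2 fold change was 0.23 (standard error 0.07, edgeR adjusted p = 0.00346). Smad2 had 69.8, 67.6 and 65.3 CPM in Control and 56.2, 57.8 and 62.0 CPM in STZ, so its groups were apart in the other direction. Its log2 fold change was -0.20 (standard error 0.05, edgeR adjusted p = 0.00220). Smad3 made up 34.5% ± 0.28 of the reads of Smad2 and Smad3 in Control and 41.6% ± 2.54 in STZ (SD, n = 3 each). That share was chosen after the values had been seen and was not tested, and STZ replicate 3 was the STZ sample nearest to Control. In RefSeq's GRCr8 annotation a pseudogene overlaps the span of Smad2, and no source states whether counting used the strand, so the reads of both may be mixed. The same holds for Tgfbr3, which overlaps 2 long non-coding RNAs, and Tgfb2, which overlaps a small nucleolar RNA.

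**Figure D2:**
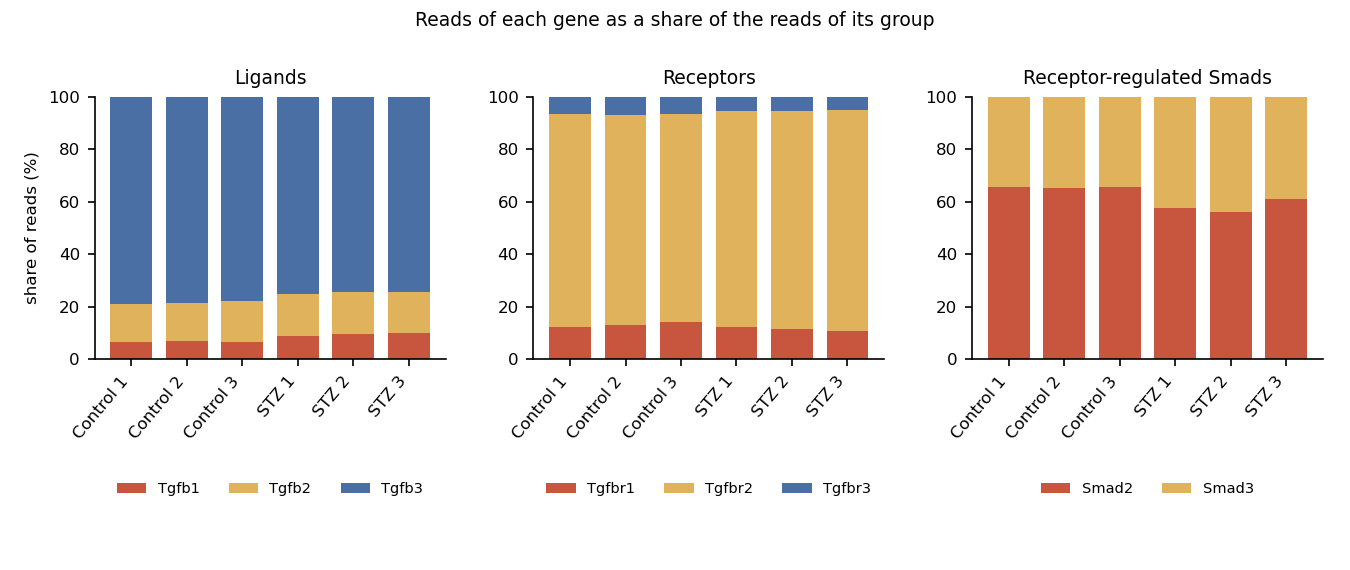
Stacked bars of the percentage of reads (vertical axis, 0 to 100) that each gene took of the reads of the 3 ligands, the 3 receptors and the 2 receptor-regulated Smads, for each of the 6 samples. The Tgfb1 share rises from 6.65% on average in Control to 9.47% in STZ and the Smad3 share from 34.5% to 41.6%.

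Both inhibitor genes were lower in STZ-treated cells, and both calls rested on Control replicate 3. Smad7 had 66.2, 64.4 and 74.0 CPM in Control and 60.4, 60.0 and 60.5 CPM in STZ. The STZ samples were almost equal and lay below all Control samples, of which replicate 3 stood highest. Its log2 fold change was -0.18 (standard error 0.06, edgeR adjusted p = 0.00591). Without Control replicate 3 it was -0.11 and no longer past the threshold (adjusted p = 0.110 from edgeR), and 2 of the 10 genes were then called lower in place of 4. Skil had 155.5, 155.5 and 174.8 CPM in Control and 152.7, 136.9 and 143.7 CPM in STZ. STZ replicate 1 lay just below the lower Control samples, and Control replicate 3 again stood highest. The log2 fold change of Skil was -0.17 (standard error 0.05, edgeR adjusted p = 0.00295), and -0.11 without Control replicate 3 (adjusted p = 0.0613 from edgeR).

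**Figure D3:**
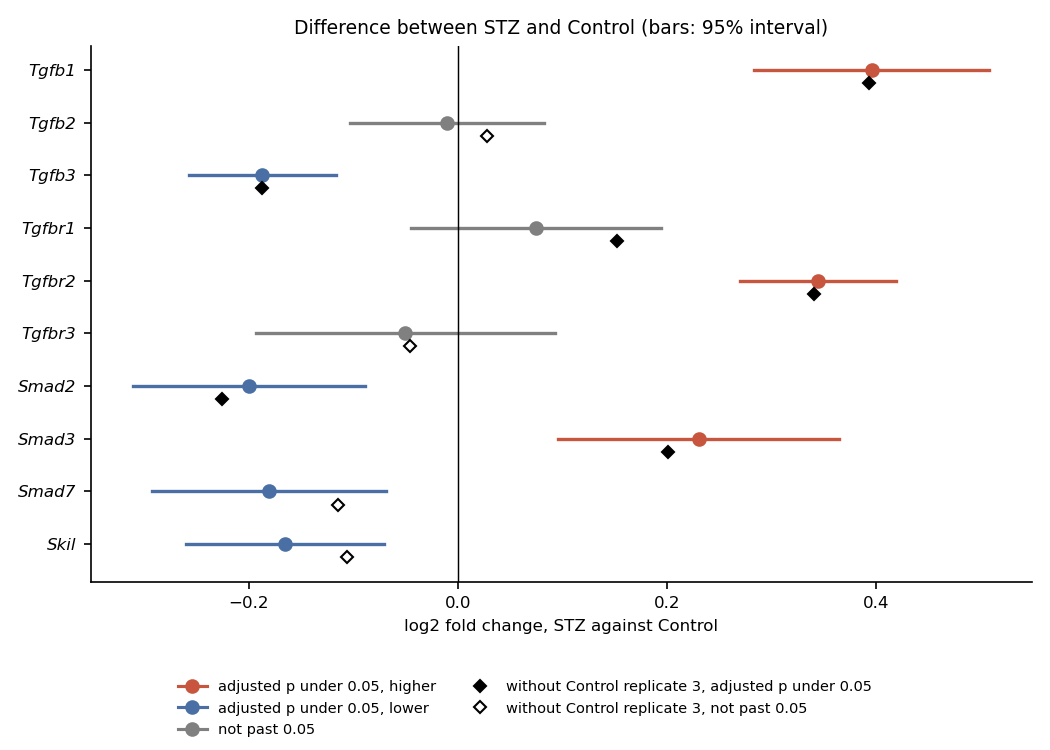
Log2 fold change of STZ against Control (horizontal axis) for each of the 10 genes, with circles and bars for the value and its 95% interval from all 6 samples and diamonds for the value without Control replicate 3. Tgfb1, Tgfbr2 and Smad3 lie to the right of 0 and Tgfb3 and Smad2 to the left with or without that sample, while the open diamonds of Smad7 and Skil no longer pass the threshold and the filled diamond of Tgfbr1 does.

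The sequences before the starts of Tgfb1, which had the largest rise, and Skil, one of the feedback inhibitors called lower, are shown as examples of the 2 directions. The call of Skil rested on Control replicate 3. They are the 250 bases upstream of the annotated start, 5′ to 3′ on the strand of the gene, from RefSeq's GRCr8 build, which is not the build the reads were mapped to. Tgfb1 is at chr1:90324062-90324311 on the plus strand, and Skil at chr2:114203573-114203822 on the minus strand. Capitals mark matches on either strand to the motifs searched.
Tgfb1: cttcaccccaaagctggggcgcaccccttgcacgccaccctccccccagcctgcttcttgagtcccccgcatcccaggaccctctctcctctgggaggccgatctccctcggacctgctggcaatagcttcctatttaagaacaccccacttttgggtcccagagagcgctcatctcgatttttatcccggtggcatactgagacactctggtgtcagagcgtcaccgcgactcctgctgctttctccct
Skil: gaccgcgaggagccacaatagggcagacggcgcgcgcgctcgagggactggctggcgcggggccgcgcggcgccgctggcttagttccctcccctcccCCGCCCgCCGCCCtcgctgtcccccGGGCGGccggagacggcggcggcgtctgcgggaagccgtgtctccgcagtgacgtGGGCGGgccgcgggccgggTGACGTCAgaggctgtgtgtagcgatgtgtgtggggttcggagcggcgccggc
All 10 genes had such a window, and Smad2 had 2. The motifs searched on both strands were the Smad palindrome GTCTAGAC, the CAGA box AGCCAGACA, the AP-1 site TGACTCA, the cyclic AMP response element TGACGTCA, the GC box GGGCGG and the TATA sequence TATAAA. None of these motifs contains another. Of 33469 windows in the RefSeq table, 0.173% held the Smad palindrome, 0.314% the CAGA box, 4.05% the AP-1 site and 12.9% the TATA sequence, and these 4 had 0 matches in the windows of the 10 genes. The cyclic AMP response element, held by 1.59% of windows, matched once in the window of Skil, 53 bases before the start. GC boxes, held by 30.5% of windows, matched 4 times in Skil and at least once in Smad2, Smad3, Smad7, Tgfbr1, Tgfbr2 and Tgfbr3, but in no ligand gene. The median of all windows was 51.2% G and C. Ligand gene windows had 48.8% to 61.6%, that of Tgfbr2 58.0%, and those of the other receptor genes, the Smad genes and Skil 68.4% to 82.8%. The part of base content in the GC box matches was not tested. A match is a description of these letters and not a bound site.

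The 3 tested genes whose CPM over the 6 samples lay closest to that of Tgfb1, on a log2 scale and each centred on its own mean, were Tbc1d8, Clk3 and Mfsd1. Their root mean square differences from Tgfb1 were 0.015, 0.026 and 0.029, and their log2 fold changes 0.40, 0.39 and 0.37. With 6 samples in 2 groups, this likeness is mostly the size of the difference between the groups.

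Genes listed under TGF-beta latency and activation changed in both directions. Not every gene listed holds or releases the latent ligand, and Eng encodes a co-receptor. Of 23 genes listed, 16 were tested, and 8 were higher, 3 lower and 5 not past the threshold (edgeR adjusted p). The share called was 68.8%, against 50.9% of all genes tested (25.9% higher and 25.1% lower), and the median log2 fold change was 0.12, against -0.0055 for all genes tested. Mmp2, a gelatinase that can release latent TGF-beta, rose from 4.06 ± 0.99 CPM in Control to 20.3 ± 2.34 CPM in STZ (SD, n = 3 each), with a log2 fold change of 2.33 (standard error 0.14, edgeR adjusted p = 2.18e-18). Eng, which encodes the co-receptor endoglin, rose from 2.37 ± 0.63 to 5.30 ± 0.14 CPM, with a log2 fold change of 1.17 (edgeR adjusted p = 5.79e-06), on 22 to 34 reads per Control sample. Endoglin is best known in endothelium. Of the 7 endothelial markers measured, Egfl7 was called higher and Vwf lower, and Kdr had 0 to 2 reads in Control libraries against 6 to 9 in STZ libraries. Counts of Pecam1, Cdh5, Tek and Tie1 never exceeded 7, and the part of these markers in the rise of Eng was not tested. Itgav encodes the integrin subunit shared by the receptors that pull on the latent complex, and its log2 fold change was 0.38. Those of Mmp14, a membrane-bound protease, and Thbs1, which encodes thrombospondin 1, were 0.19 and 0.18, and that of Ltbp2 was 0.57. Ltbp4 and Ltbp3, which encode proteins that tether the latent complex, fell by 0.29 and 0.24 on the log2 scale, while Ltbp1, another such gene, had a log2 fold change of 0.15 (edgeR adjusted p = 0.00292) and was named after its value had been seen. Furin, the convertase that cuts the ligand precursors, fell by 0.27. The partner integrin gene Itgb6 did not pass the filter, and Itgb8 had a log2 fold change of 0.40 that did not pass the test (edgeR adjusted p = 0.205). In the GRCr8 annotation Ltbp3, Itgav, Thbs1 and Furin overlap other annotated genes, whose reads may be mixed with theirs.

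Regulators of the signal were called in both directions. Of 31 listed, 27 were tested, and 4 were higher, 8 lower and 15 not past the threshold (edgeR adjusted p). The share called was 44.4%, near the 50.9% of all genes tested, and the median log2 fold change was -0.010, against -0.0055 for all genes tested. The transcription factor gene Sp1 and the coactivator genes Crebbp and Ep300, whose products work with Smad complexes, had log2 fold changes of -0.30, -0.28 and -0.21. Smurf1, a ubiquitin ligase gene of the Smad and receptor turnover machinery, had -0.21. Usp15, which encodes a deubiquitinase of the pathway, had a log2 fold change of 0.22 and Fkbp1a, whose product holds the type I receptor inactive, 0.15. Bambi, a decoy receptor gene (0.38, edgeR adjusted p = 0.0318), and Usp11 (0.16, edgeR adjusted p = 0.0461) passed narrowly and their groups overlapped, and the calls were lost under 6 and 9 of the 14 alternatives. Without Control replicate 2, Control replicate 3 or STZ replicate 1, 2 regulators were called higher, and without STZ replicate 1, 5 were called lower and 7 in all. Smad4, the shared partner of Smad2 and Smad3, fell by 0.18 (edgeR adjusted p = 0.00141), and Smad6, an inhibitory Smad gene, also fell by 0.18 (edgeR adjusted p = 0.00653). Pmepa1, a feedback inhibitor gene that TGF-beta induces, had a log2 fold change of 0.03 (edgeR adjusted p = 0.637). Ep300, Usp15 and Fkbp1a overlap other annotated genes, whose reads may be mixed with theirs. Smad4, Smad6 and Pmepa1 were named after their values had been seen.

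Known target genes of TGF-beta did not move in 1 direction. Of 38 listed, 31 were tested, and 15 were higher, 8 lower and 8 not past the threshold (edgeR adjusted p). The share called was 74.2%, against 50.9% of all genes tested (25.9% higher and 25.1% lower), and the median log2 fold change was 0.18, against -0.0055 for all genes tested. The list mixes genes that TGF-beta raises with genes such as Id3 and Myc that it lowers in epithelial cells. Cdkn1a, which encodes p21 and is also a main target of p53, had the largest rise of the list, from 232 ± 4.19 to 1298 ± 23.0 CPM (SD, n = 3 each). Tagln, a smooth muscle actin-binding protein gene, rose from 51.4 ± 4.71 to 107 ± 2.81 CPM (log2 fold change 1.05). Snai2, which encodes the repressor Slug, had a log2 fold change of 1.10 from 4.96 CPM in Control. Angptl4 had one of 1.54, on 5 to 7 reads in each Control library and 18 to 23 in each STZ library. Timp1, a matrix protease inhibitor gene, had a log2 fold change of 0.65, and Loxl2, which encodes a collagen cross-linking enzyme, and Spp1, which encodes osteopontin, had 0.39 and 0.36. Timp1 overlaps Syn1 in the GRCr8 annotation, so their reads may be mixed.

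In the other direction, the fibrillar collagen gene Col3a1 fell from 53.9 ± 6.50 to 21.3 ± 2.31 CPM (SD, n = 3 each), with a log2 fold change of -1.35 (standard error 0.08, edgeR adjusted p = 2.54e-18). The other collagen genes of the list differed. Col1a1 was called lower and Col5a1 higher (log2 fold changes -0.27 and 0.19, edgeR adjusted p = 0.00921 and 1.71e-04). Col4a1 and Col4a2 did not pass the test, and Col1a2 did not pass the filter. These other collagen genes were added here after their values had been seen. Col3a1 and Acta2 also stand in the list of fibroblast and pericyte markers, of which 4 were called lower and 2, Des and Cspg4, higher. Id3 had a log2 fold change of -0.31 and Myc one of -0.33. Acta2, which encodes smooth muscle actin, and Vim, which encodes vimentin, had -0.21 and -0.12 (edgeR adjusted p = 0.00359 and 0.00524). Without Control replicate 3 neither passed the threshold, with log2 fold changes of -0.15 and -0.08 (edgeR adjusted p = 0.0620 and 0.0537). Without that sample 5 target genes were called lower in place of 8.

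**Figure D4:**
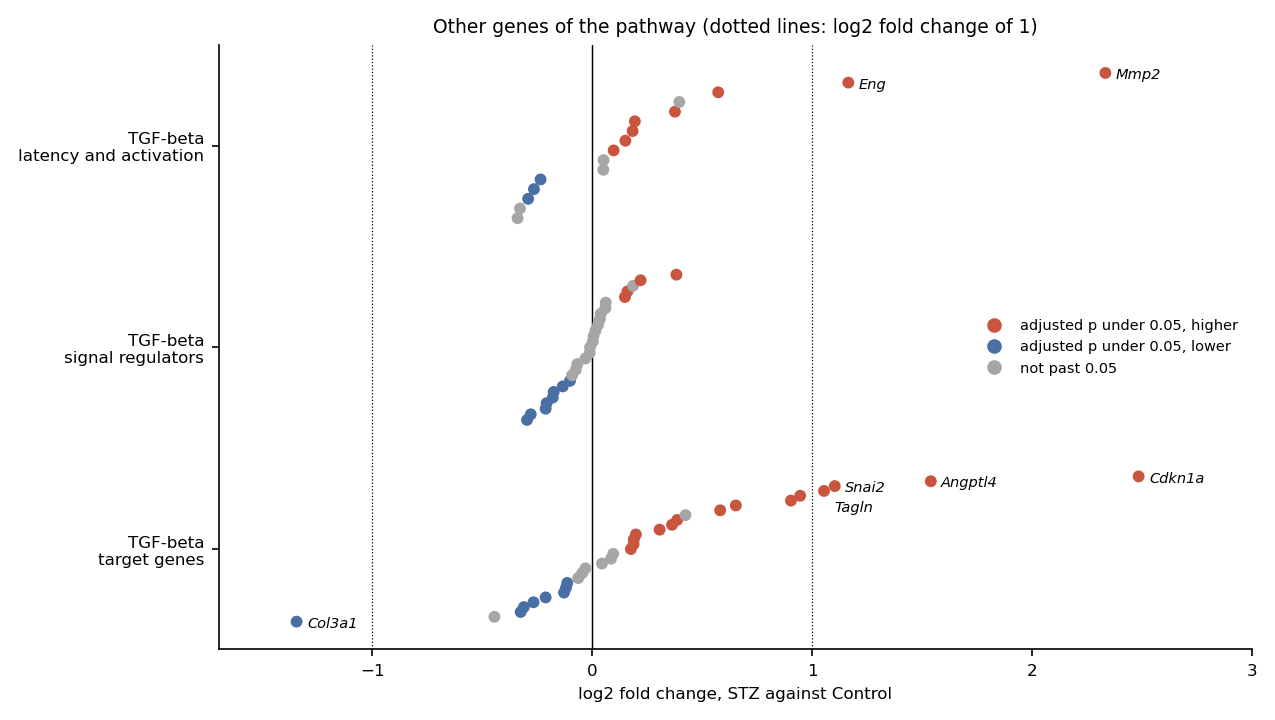
Log2 fold change of STZ against Control (horizontal axis, dotted lines at -1 and 1) for the tested genes of the 3 pathway lists, 1 point per gene in order of value, coloured by whether the adjusted p-value was under 0.05. Only Mmp2, Eng, Cdkn1a, Angptl4, Snai2 and Tagln lie beyond the upper line and Col3a1 beyond the lower one.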

How the data were processed

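RNA of 3 Control and 3 STZ samples of NRK-52E cells was sequenced from stranded mRNA libraries. The authors aligned reads to the Rnor6 build with STAR 2.7.10a and assigned uniquely mapping ones to genes with featureCounts, and the deposited values are raw counts. Per the labels, samples were grouped by their titles, and no column was left over.

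The whole table was fitted with edgeR 4.0.16 in R 4.3.3, using TMM scaling, filterByExpr at its defaults, the quasi-likelihood test and Benjamini-Hochberg adjustment over 11870 genes. Thresholds were an adjusted p-value of 0.05 and, where stated, an absolute log2 fold change of 1, as in the study's methods. CPM used TMM-scaled totals of the genes tested. The standard error is the absolute log2 fold change over the square root of F, and 95% intervals use edgeR's degrees of freedom. The steps were tested on simulated data.

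The 10 genes and the pathway and marker lists were chosen with earlier results of these data known. From each pathway list, genes past both thresholds and up to 4 others per direction with the smallest adjusted p were named, with the 3 genes nearest to the member with the largest change. Of the 23, 31 and 38 listed pathway genes, 21, 29 and 34 were matched by symbol, and the others were not analysed here. Values of some single genes are left out of the text, though they enter the counts. DESeq2 1.42.0, limma-voom (limma 3.58.1), other scalings and filters, the replicate block and each sample left out were tried. Total counts of 10430924 to 15191349 per sample set the precision.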

Additional observations from a re-analysis of the deposited data

How the results depend on the processing

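The calls of Tgfb1, Tgfb3, Tgfbr2, Smad2 and Smad3 kept their direction and side of the threshold under all 14 alternatives. Of the 140 refits of the 10 genes, 135 did so, 2 were weaker, 1 stronger and 2 reversed, all with a sample left out. With one sample left out, the log2 fold change was -0.22 to -0.11 for Smad7, -0.20 to -0.11 for Skil, 0.030 to 0.15 for Tgfbr1 and -0.039 to 0.028 for Tgfb2, which was 0.028 without Control replicate 3 and 0.020 without STZ replicate 3, never past the threshold. Members called lower then numbered 2 to 4. Signal regulators called numbered 7 to 12 (2 to 4 higher, 5 to 8 lower), with the fewest in all and the fewest lower without STZ replicate 1, and target genes called lower 5 to 9. Signal regulators called higher were 2 with library size only and 2 with DESeq2, and the cause was not tested. The median of all genes moved from -0.0055 to at most -0.04 with another scaling. Of 420 refits of the 30 named pathway genes, which were added after the data had been seen, 402 kept their call and 17 were weaker, all for Bambi, Usp11, Acta2 or Vim. With at least 10 counts in every sample Angptl4 was not tested.

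Control and STZ samples share replicate numbers. Deviations of same-numbered samples from their group means had correlations of 0.0329, -0.0366 and 0.109 across 10341 genes, and 3 of 6 samples correlated best with their own number. The sources state no pairing, and these values cannot tell whether same-numbered samples share more than the number. With the replicate block 3 of the 10 genes were higher and 4 lower, as without it, and 6199 of all genes were called. For the ligand shares, the exact sign-flip test over the numbered pairs gave p = 0.25, the smallest it allows.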
